A study of Bos indicus with 6 samples.

Results

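The matrix metalloproteinases (MMP), the ADAM proteins and the ADAMTS proteins were taken from the isthmus transcriptome by their gene symbols alone, as every symbol that begins with MMP, ADAM or ADAMTS followed by a digit. These were 54 of the 24616 genes listed, 18 MMP, 18 ADAM and 18 ADAMTS genes, and MMP1 stands on a pair of rows. The isthmus, the narrow part of the oviduct next to the uterus, was sampled through its whole thickness from the side of the corpus luteum in 6 multiparous Nelore cows (Bos indicus), with 1 RNA-seq library per cow. All cows were pre-synchronized with a GnRH agonist and prostaglandin and received estradiol benzoate and a progesterone device, then prostaglandin at device removal and again later, then a GnRH agonist to induce ovulation, and tissue was taken on day 4 after it. In the 3 LF/LCL cows (large follicle, large corpus luteum), an additional prostaglandin injection was given at device insertion and the device was removed 42 h before GnRH, whereas in the 3 SF/SCL cows (small follicle, small corpus luteum) it was removed 30 h before GnRH. The animals sequenced had been chosen by ranking, from the top of LF/LCL and the bottom of SF/SCL, and therefore stand for the extremes of each group. Untreated cows were not part of the comparison.

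These are 3 families of zinc-dependent endopeptidases that act outside the cell or at its surface. MMPs are made as inactive precursors and together cleave most proteins of the extracellular matrix, some after secretion and others while anchored in the cell membrane. ADAMs are membrane proteins, of which some release the outer part of growth factors, cytokine receptors and Notch from cells, while others lack a working zinc site and serve in cell adhesion. ADAMTSs are secreted, bind matrix through thrombospondin repeats, and cleave large proteoglycans, the ends of procollagens or von Willebrand factor. In the oviduct wall, the sources of such enzymes include fibroblasts, smooth muscle, epithelium and leukocytes.

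Expression is given as the normalized read count, the reads of a gene divided by the size factor of its library. The libraries held 23899117 to 34193164 reads. Normalized counts depend on transcript length, so they are compared between cows and not between genes. Within a group, values are listed in the order of LF/LCL cows 617, 79 and 527 and of SF/SCL cows 856, 489215 and 97. A log2 fold change is SF/SCL over LF/LCL on the scale of log2(normalized count + 1), with negative values for genes that LF/LCL cows expressed more highly, and it understates the change of genes with few reads. Its standard error (SE) and p-value come from limma, and BH-adjusted means adjusted by the Benjamini-Hochberg method over all genes tested. Cow 489215 stood apart from the other cows of its group in its marker genes, as given further on, so many fold changes and some of the counts are also given without it. This cow was singled out from these same data. The p-values without it rest on SF/SCL cows 856 and 97 alone and do not allow for that choice.

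Among 15387 genes tested with limma, 0 passed a Benjamini-Hochberg adjusted p-value of 0.05 (0% of genes), and 1333 had an unadjusted p-value under 0.05 (8.66%). The smallest adjusted p-value among the proteases was 0.367, for ADAMTS2. None of the differences between LF/LCL and SF/SCL cows described here therefore passed that threshold with all 6 cows, edgeR's quasi-likelihood test also called 0 genes, and DESeq2 called 416 (2.7%), 208 of them higher in LF/LCL (1.35%). The DESeq2 calls held 5 proteases, MMP14, MMP24, ADAM23, ADAMTS2 and ADAMTS4, all 5 higher in LF/LCL. Without cow 489215, limma called 2827 of 15495 genes (18.2%), and 0 when any other cow was left out.

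Of the 54 protease genes, 42 passed the filters on low and variable counts, 9 MMP, 15 ADAM and 18 ADAMTS genes. Of these 42, 38 had a log2 fold change below 0, as did 51.4% of all genes tested. The 38 include ADAM7, ADAMTS8 and ADAMTS13, which passed the filter on the mean only through the LF/LCL cows. ADAMTS13 is also among the genes without overlap counted below. Unadjusted p-values under 0.05 were found for 11 protease genes, all 11 higher in LF/LCL, where 4.48% of all genes were higher and 4.19% lower in LF/LCL at that level. For 15 of the 42, the values of the 3 LF/LCL cows lay above those of the 3 SF/SCL cows without overlap, which held for 8.6% of all genes tested, and for 0 they lay below, which held for 9.51%. The median log2 fold change was -0.85 for the MMPs, -0.62 for the ADAMs and -0.89 for the ADAMTSs, beside -0.02 for all genes tested. Without cow 489215 these medians were -0.94, -0.39 and -0.56, beside 0.00 for all genes, and 32 of the 42 were below 0. In that fit 10 protease genes passed the adjusted threshold, 9 higher in LF/LCL (7.92% of all genes) and 1 higher in SF/SCL (10.3%).

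**Figure D1:**
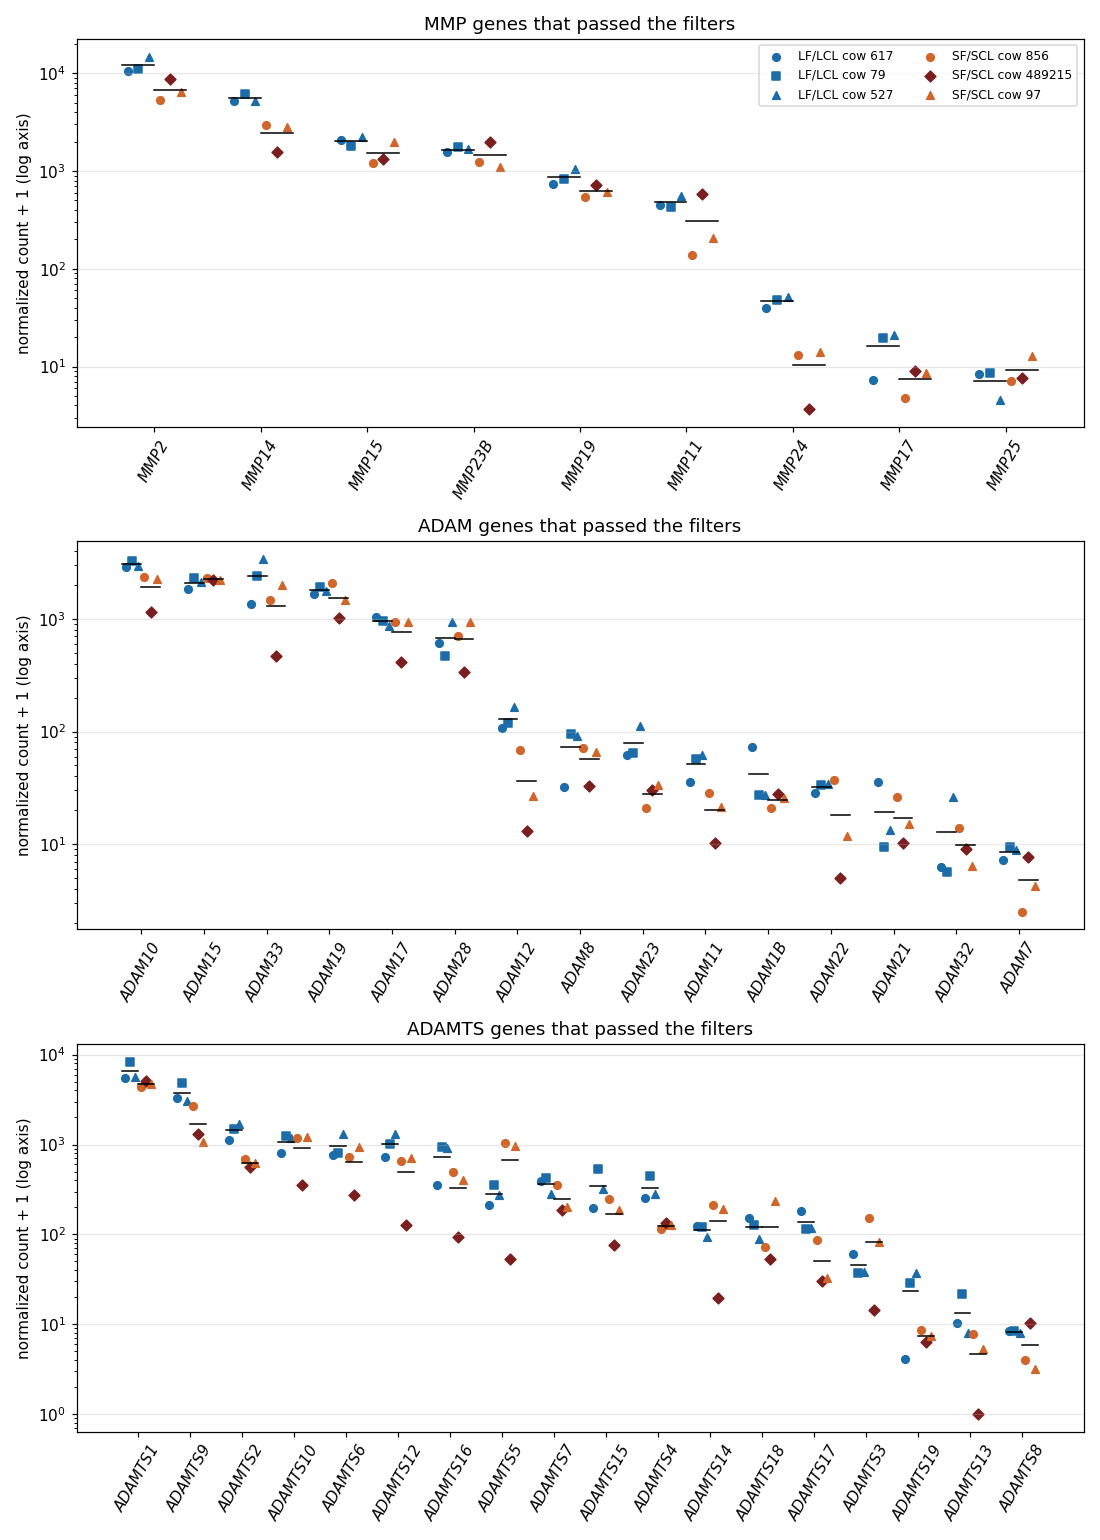
Normalized count plus 1, on a log axis, of each MMP, ADAM and ADAMTS gene that passed the filters, with a point per cow and black lines at the mean of each group (n = 3). The blue points of LF/LCL lie above all SF/SCL points for 15 of the 42 genes, and cow 489215 (dark red diamond) is the lowest of the 6 cows for 23.

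Among the MMPs, the gelatinase MMP2 and the membrane-anchored MMP14 and MMP24 had higher values in every LF/LCL cow than in any SF/SCL cow. MMP2, which cleaves denatured collagen and basement membrane collagen, had normalized counts of 10524, 11121 and 14848 in LF/LCL and 5327, 8707 and 6395 in SF/SCL. The lowest LF/LCL cow stood above the highest SF/SCL cow, which was cow 489215. For MMP2 the log2 fold change was -0.85 (SE 0.25, limma BH-adjusted p = 0.433), and -1.04 without cow 489215 (limma BH-adjusted p = 0.0112). MMP14 (MT1-MMP), a membrane collagenase that also converts the precursor of MMP2 to the active enzyme, had 5195, 6209 and 5203 in LF/LCL and 2932, 1572 and 2832 in SF/SCL. Here cow 489215 was the lowest of all, and the groups were apart by more than the spread within either of them. Means ± SD were 5536 ± 583 and 2445 ± 758 (n = 3 each), a 2.26-fold difference. The log2 fold change of MMP14 was -1.23 (SE 0.28, limma BH-adjusted p = 0.372), and -0.94 without cow 489215 (limma BH-adjusted p = 0.00420).

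MMP24 (MT5-MMP), best known from the nervous system, had the log2 fold change farthest from 0 of the 42 genes with all 6 cows and a pseudocount of 1. With a pseudocount of 5 ADAM12 was farther from 0 (-1.96 against -1.92), as was ADAMTS5 without cow 489215 (1.86 against -1.77). The MMP24 values were 38.7, 46.9 and 50.9 in LF/LCL and 12.2, 2.66 and 13.0 in SF/SCL, the lowest of them resting on 2 reads. The log2 fold change of -2.40 (SE 0.62, limma BH-adjusted p = 0.405) was -1.77 without cow 489215. In the RefSeq gene table of another assembly, the antisense gene MMP24OS overlaps the end of MMP24, and reads of the pair cannot be told apart unless strand was used in counting. MMP19, a secreted MMP active against basement membrane proteins, was also free of overlap, with 735, 825 and 1047 in LF/LCL and 540.1, 714 and 608 in SF/SCL. That 1.40-fold difference did not reach an unadjusted p-value under 0.05.

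The other MMPs with many reads overlapped between the groups. MMP15 (MT2-MMP), a membrane-anchored MMP of epithelia, had 2062, 1803 and 2238 in LF/LCL against 1219, 1326 and 1996 in SF/SCL, and SF/SCL cow 97 lay among the LF/LCL cows. MMP23B, an atypical membrane MMP, had 1553, 1742 and 1667 in LF/LCL against 1229, 1997 and 1108 in SF/SCL. SF/SCL cows 856 and 97 were below every LF/LCL cow for MMP23B, while cow 489215 was above them all. The same order of cows was seen for MMP11 (stromelysin-3, typical of stromal cells and activated inside the cell by furin), described here after its values were seen, with 447, 432 and 559.5 in LF/LCL and 137, 584 and 206 in SF/SCL. For MMP11 the log2 fold change moved from -0.90 (limma BH-adjusted p = 0.734) to -1.50 once cow 489215 was left out (limma BH-adjusted p = 0.00937). That of MMP23B went from -0.24 to -0.50 (limma BH-adjusted p = 0.0223). Because MMP11 was added after its values were seen, its p-value without cow 489215 is not a test of it. This order, with cows 856 and 97 below and cow 489215 above LF/LCL, was shared by 3 of the 42 genes, ADAMTS8 being the third, and by 12.8% of all genes tested. MMP17 and MMP25, which are held to the membrane by a lipid anchor, had 3.51 to 20.2 normalized counts and overlapped between the groups. MMP25 was the 1 tested MMP with a log2 fold change above 0, at 0.38 (SE 0.53).

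The remaining 9 MMP rows did not pass the filters. MMP7 (matrilysin), an epithelial MMP without the hemopexin domain of most others, had 10.5, 7.51 and 11.4 in LF/LCL and 46.3, 20.0 and 139.8 in SF/SCL. All 3 SF/SCL cows were above all LF/LCL cows, a mean 7.01-fold higher, but the SD over the 6 cows was above the mean, so that MMP7 entered no test in the main comparison. It is described after its values were seen, and it was the 1 protease gene of the 54 with higher SF/SCL values and no overlap. The interstitial collagenases were close to 0, with MMP1 listed at 0 on both rows, MMP8 at no more than 0.88 and MMP13 at no more than 1.05. A count of 0 leaves room for up to 3 reads per library, for counting error alone. MMP20 (enamelysin, of teeth) stayed at or under 0.94, MMP27 at or under 6.57 and MMP3 (stromelysin-1) at or under 6.50. MMP9, the gelatinase of neutrophils and macrophages, was at or under 1.05 in LF/LCL and ranged from 0 to 7.59 in SF/SCL. The granulocyte receptor gene CSF3R was low in the same libraries, at 12.6, 11.3 and 9.66 in LF/LCL against 6.84, 9.32 and 5.42 in SF/SCL. The macrophage genes CD14, CD68 and CD163 ranged over the cows from 195 to 498, from 70.6 to 219 and from 21.3 to 384. The source of the MMP9 reads was not tested.

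**Figure D2:**
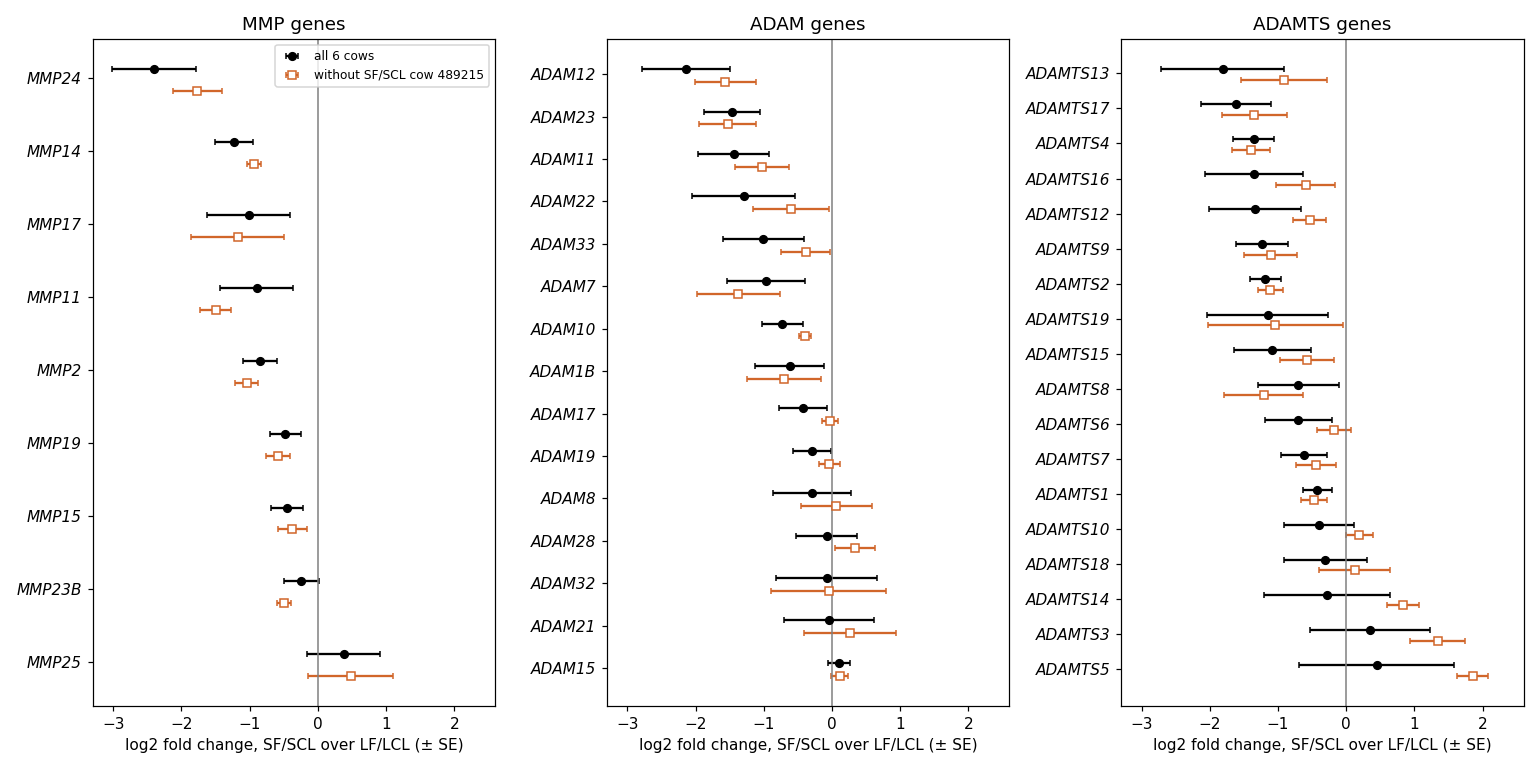
Log2 fold change of SF/SCL over LF/LCL with its standard error from limma for each MMP, ADAM and ADAMTS gene, with all 6 cows (black circles) and without SF/SCL cow 489215 (open orange squares). Most points lie left of 0, higher in LF/LCL, and without cow 489215 several ADAM genes move to near 0 while ADAMTS5, ADAMTS3 and ADAMTS14 lie on the right.

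The ADAMs were read by function. Of the 5 tested genes for ADAMs without a working zinc site (ADAM7, ADAM11, ADAM22, ADAM23 and ADAM32), all 5 had a log2 fold change below 0, with a median of -1.30. Among these 5, ADAM7 passed the filter on the mean only through the LF/LCL cows. Of the 9 tested genes for ADAMs with protease activity, 8 were below 0, with a median of -0.29. Over all genes tested, 51.4% were below 0. Without cow 489215 these medians were -1.02 and -0.03. The difference between these subgroups was not tested.

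ADAM23, an adhesion protein that binds integrins and the LGI proteins of neurons, had 60.7, 63.8 and 109.8 in LF/LCL and 19.7, 29.3 and 32.5 in SF/SCL, with every LF/LCL cow above every SF/SCL cow. The log2 fold change of ADAM23 was -1.47 (SE 0.41, limma BH-adjusted p = 0.413). It changed little without cow 489215, at -1.53 (limma BH-adjusted p = 0.0492). ADAM11, a neuronal relative of ADAM23, had 34.5, 56.3 and 61.5 in LF/LCL against 27.3, 9.32 and 20.6 in SF/SCL, also without overlap. The log2 fold change of ADAM11 was -1.44 (SE 0.52). ADAM22, the third of these LGI-binding relatives, had 27.2, 32.9 and 33.4 in LF/LCL against 36.5, 3.99 and 10.8 in SF/SCL. The groups overlapped through SF/SCL cow 856 alone, and the log2 fold change was -1.30 (SE 0.75). The sperm-associated ADAM2 and ADAM18 were listed at 0 in every cow, and ADAM7, known from the epididymis, had 1.52 to 8.45.

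Among the sheddases, ADAM10 was higher in every LF/LCL cow and ADAM17 was not. ADAM10, which cleaves Notch, E-cadherin and several growth factor precursors, had 2897, 3250.4 and 2955 in LF/LCL and 2364, 1152 and 2241 in SF/SCL. The LF/LCL cows lay close together and cow 489215 had the lowest value. The log2 fold change of ADAM10 was -0.73 (SE 0.30, limma BH-adjusted p = 0.573), and -0.40 without cow 489215 (limma BH-adjusted p = 0.0324). ADAM17 (TACE), which releases TNF and ligands of the EGF receptor, had 1028, 960.2 and 864 in LF/LCL against 926, 414 and 929 in SF/SCL. Cow 489215 alone stood below the others, and the log2 fold change of -0.42 was -0.03 without it.

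ADAM12 (meltrin alpha), an ADAM of mesenchymal and developing muscle cells, had the log2 fold change farthest from 0 of its family with all 6 cows. Its normalized counts were 106, 117 and 162 in LF/LCL and 67.6, 11.98 and 26.0 in SF/SCL, so that the groups did not overlap although the SF/SCL cows differed widely among themselves. For ADAM12 the log2 fold change was -2.14 (SE 0.64, limma BH-adjusted p = 0.433), and -1.56 without cow 489215 (limma BH-adjusted p = 0.0583). ADAM19 (meltrin beta), a close relative in the family, had 1675, 1918 and 1762 in LF/LCL against 2061, 1022 and 1463 in SF/SCL, with SF/SCL cow 856 above every other cow. ADAM33, another ADAM of fibroblasts and smooth muscle, had 1365, 2384 and 3389 in LF/LCL and 1457, 469 and 1988 in SF/SCL. Its LF/LCL values spanned those of cows 856 and 97, and the log2 fold change went from -1.01 to -0.39 without cow 489215.

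ADAM15, an ADAM of epithelium and endothelium, had the smallest spread within the groups of the 42 genes. It had 1832, 2312 and 2132 in LF/LCL and 2291, 2215 and 2204 in SF/SCL, and the 95% confidence interval of its log2 fold change of 0.10 ran from -0.29 to 0.50. It was the 1 tested ADAM above 0. ADAM28, ADAM8, ADAM1B, ADAM21 and ADAM32 overlapped between the groups and had log2 fold changes from -0.62 to -0.05 with all 6 cows. Without cow 489215 those of ADAM28, ADAM8 and ADAM21 were above 0, at 0.34, 0.06 and 0.27. ADAM20, closely related to ADAM21 and next to it in the RefSeq gene order, was at or under 7.60 and did not pass the filters, and reads of such near copies could have been divided or dropped.

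Of the ADAMTS genes, the procollagen and proteoglycan enzymes ADAMTS2, ADAMTS4 and ADAMTS9 were higher in every LF/LCL cow. ADAMTS2, which removes the amino-terminal extension of fibrillar procollagens, had 1123, 1493 and 1697 in LF/LCL and 697, 563 and 617 in SF/SCL. The SF/SCL cows, cow 489215 included, lay within a narrow range, well below the lowest LF/LCL cow. Means ± SD were 1438 ± 291 and 626 ± 67.5 (n = 3 each), and the log2 fold change was -1.18 (SE 0.23, limma BH-adjusted p = 0.367). Without cow 489215 it was -1.11 (limma BH-adjusted p = 0.0124). The other enzymes with this activity did not share its pattern. ADAMTS14 had 122, 121 and 93.1 in LF/LCL and 209.6, 18.6 and 189.7 in SF/SCL, and ADAMTS3 had 59.7, 36.6 and 36.9 in LF/LCL against 151, 13.3 and 81.3 in SF/SCL. For both, SF/SCL cows 856 and 97 were above every LF/LCL cow and cow 489215 was far below them.

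The proteoglycanases cleave the large aggregating proteoglycans versican and aggrecan. ADAMTS4 (aggrecanase 1) had 256, 451 and 284 in LF/LCL and 115, 132 and 127 in SF/SCL, again with little spread in SF/SCL. For ADAMTS4 the log2 fold change was -1.36 (SE 0.31, limma BH-adjusted p = 0.372), and -1.40 without cow 489215 (limma BH-adjusted p = 0.0199). ADAMTS9, a versican-cleaving enzyme of vessels and developing tissues, had 3275, 4879.9 and 3078 in LF/LCL and 2688, 1325 and 1074 in SF/SCL. That was a 2.21-fold difference of the means, with a log2 fold change of -1.23 (SE 0.38). ADAMTS1, a progesterone-regulated versicanase of the ovulating follicle, had 5521, 8374 and 5567 in LF/LCL against 4414, 5089.8 and 4757 in SF/SCL. The groups were free of overlap but close, and a 1.36-fold difference did not reach an unadjusted p-value under 0.05. ADAMTS15 and ADAMTS8 overlapped between the groups, with log2 fold changes of -1.08 (SE 0.56) and -0.70 (SE 0.60), which without cow 489215 were -0.57 and -1.21.

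ADAMTS5 (aggrecanase 2) went the other way in a pair of SF/SCL cows, and it is described here, with ADAMTS3 and ADAMTS14, after its values were seen. It had 210.4, 353 and 273 in LF/LCL and 1026, 51.9 and 957 in SF/SCL. Cows 856 and 97 had about the same high value, and cow 489215 had the lowest value of the 6. With all cows the log2 fold change was 0.45 (SE 1.14, limma BH-adjusted p = 0.941). Without cow 489215 it was 1.86 (limma BH-adjusted p = 0.00487), and without cow 856 or 97 it was -0.28 or -0.23. ADAMTS5 was picked for this order of cows, so that p-value is not a test of it. The log2 fold changes of ADAMTS3 and ADAMTS14 were 0.35 and -0.28 with all cows. Without cow 489215 they were 1.34 and 0.83 (limma BH-adjusted p = 0.0661 and 0.0516). Those p-values are likewise not a test of ADAMTS3 and ADAMTS14. With edgeR and DESeq2 the log2 fold change of ADAMTS14 was above 0 (0.30 and 0.32) with all cows. These were 3 of the 42 genes in which cows 856 and 97 were above, and cow 489215 below, every LF/LCL cow, an order found in 14% of all genes tested. Within a library, ADAMTS5 was 0.820, 0.783 and 0.963 times ADAMTS4 in the LF/LCL cows and 8.95, 0.394 and 7.55 times in the SF/SCL cows (two-sided exact permutation test, p = 0.4, where the 10 ways to divide the cows allow no p below 0.1). Compared between cows, the ratio was highest in cows 856 and 97.

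The remaining ADAMTS genes were mostly lowest in cow 489215. ADAMTS12, which cleaves cartilage oligomeric matrix protein, had 723, 1014 and 1306 in LF/LCL and 649, 128 and 709.9 in SF/SCL. The groups did not overlap, and the log2 fold change of -1.34 came to -0.54 without cow 489215. ADAMTS17, one of the ADAMTSs tied to fibrillin microfibrils, had 183, 115 and 116 in LF/LCL against 86.6, 29.3 and 31.4 in SF/SCL, with a log2 fold change of -1.62 (SE 0.51) that was -1.35 without cow 489215. ADAMTS10, of the same microfibril group, had 798, 1239 and 1194 in LF/LCL against 1194, 357 and 1225 in SF/SCL. Its log2 fold change turned from -0.39 to 0.19 when cow 489215 was left out. ADAMTS13, which cuts von Willebrand factor, had 7.03 to 20.6 in LF/LCL and 0 to 6.84 in SF/SCL, without overlap but on few reads. ADAMTS6, ADAMTS7, ADAMTS16, ADAMTS18 and ADAMTS19 overlapped between the groups, with log2 fold changes from -1.35 to -0.31, and that of ADAMTS18 was 0.12 without cow 489215.

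Of the 42 tested genes, 3 (ADAM7, ADAMTS8 and ADAMTS13) had a mean at or under 5 in SF/SCL and passed the filter on the mean through the LF/LCL cows.

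**Figure D3:**
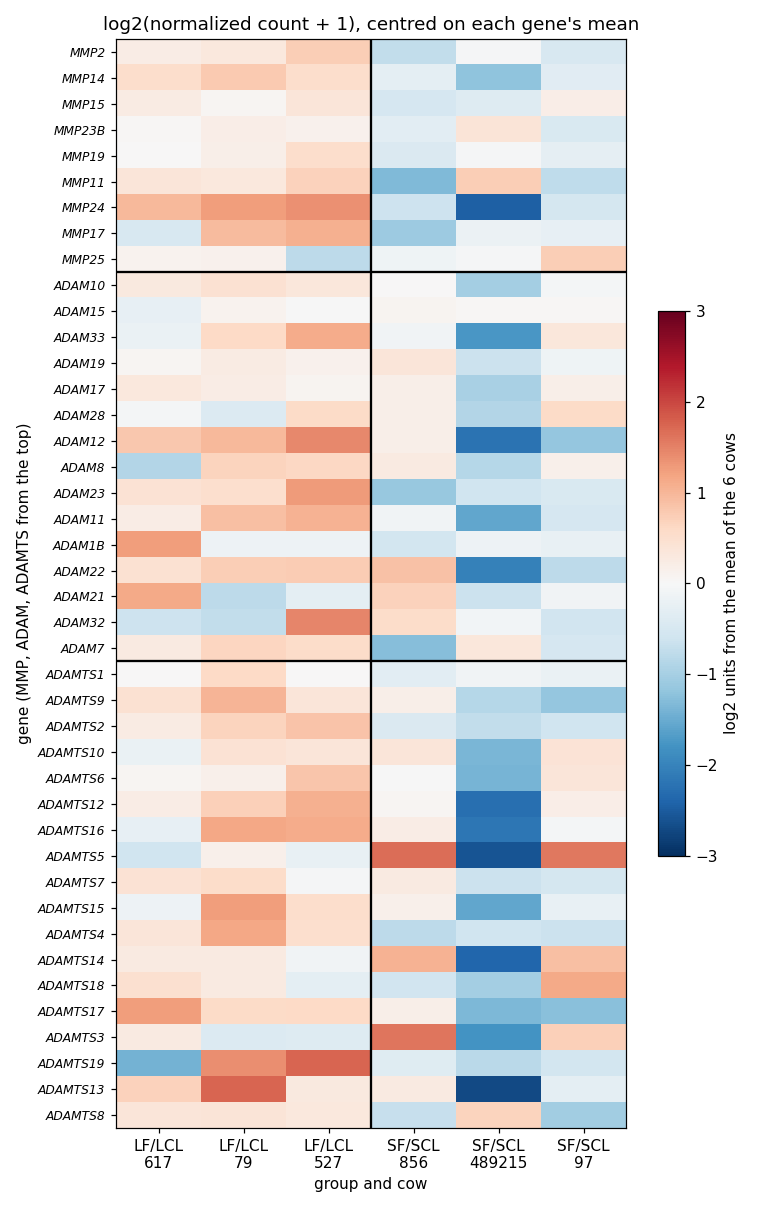
Heat map of log2(normalized count + 1) for the 42 protease genes that passed the filters, each centred on its mean over the 6 cows (red above, blue below, in log2 units), with MMP, ADAM and ADAMTS genes from the top and LF/LCL cows left of the vertical line. The column of cow 489215 is the lowest for 13 of 18 ADAMTS genes, 8 of 15 ADAM genes and 2 of 9 MMP genes.

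Cow 489215 had the lowest value of the 6 cows in 23 of the 42 genes and the highest in 3, where over all genes tested these shares were 35.7% and 36.7%. By family it was lowest for 2 of 9 MMPs, 8 of 15 ADAMs and 13 of 18 ADAMTSs. Its median over the ADAMTS genes, in log2 units from each gene's mean, was -1.36, while cows 856 and 97 were at 0.17 and -0.22 and the LF/LCL cows at 0.27 to 0.59. For the MMPs its median was -0.04, between the LF/LCL cows, at 0.23 to 0.53, and cows 856 and 97, at -0.50 and -0.35. Cows 856 and 97 were both below every LF/LCL cow in 20 of the 42 genes (25% of all genes tested) and both above in 3 (26.9%). The 3 LF/LCL cows had the 3 highest medians in each of the families.

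The inhibitors and activators of the proteases did not share 1 direction. TIMP2, which inhibits MMPs and also ties MMP14 to the MMP2 precursor, had 14838, 18257 and 14876 in LF/LCL and 8709, 15332 and 10011 in SF/SCL. Cows 856 and 97 were lowest, and cow 489215 was among the LF/LCL cows. The ratio of MMP14 to TIMP2 within a library was 0.350, 0.340 and 0.350 in the LF/LCL cows and 0.337, 0.103 and 0.283 in the SF/SCL cows (two-sided exact permutation test, p = 0.1, the smallest possible). The LF/LCL ratios were nearly equal, cow 856 lay just under them, and cow 489215 was far below. The mean log2 difference of the ratio was -0.70 with all cows and -0.17 without cow 489215. For the ratio of MMP2 to TIMP2, at 0.709, 0.609 and 0.998 in LF/LCL and 0.612, 0.568 and 0.639 in SF/SCL, the groups overlapped (exact permutation test, p = 0.3). In all, 7 ratios of this kind were tested, and after Benjamini-Hochberg adjustment the smallest p from the exact permutation tests was 0.467.

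**Figure D4:**
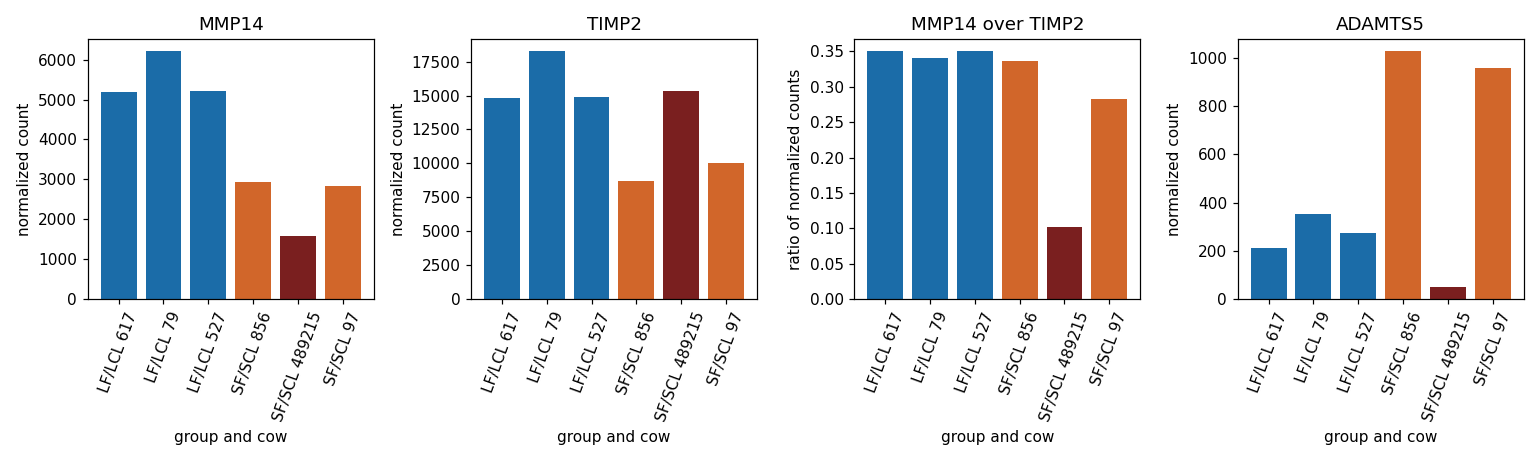
Normalized counts of MMP14 and TIMP2, the ratio of MMP14 to TIMP2 and the normalized count of ADAMTS5, with a bar per cow (LF/LCL blue, SF/SCL orange, cow 489215 dark red). The ratio is 0.283 to 0.350 in every cow but 489215, and ADAMTS5 is highest in cows 856 and 97.

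TIMP1, the inducible general inhibitor, had 4942, 4403 and 3381 in LF/LCL against 2725, 7436 and 2278 in SF/SCL, with cow 489215 highest and cows 856 and 97 lowest. TIMP3, the matrix-bound inhibitor that also blocks ADAM10, ADAM17 and the aggrecanases, had 9174, 12170.2 and 9349.9 in LF/LCL against 12503, 7164 and 10386 in SF/SCL, and the groups overlapped. TIMP4 had 653, 558 and 528 in LF/LCL against 961, 411 and 1032 in SF/SCL, with cows 856 and 97 above and cow 489215 below the LF/LCL cows. Of 6 inhibitors tested, 2 had no overlap between the groups, both higher in LF/LCL (8.6% of all genes tested). They were RECK, a membrane-bound MMP inhibitor, at 1385, 1515 and 1812 in LF/LCL against 902, 779 and 1193 in SF/SCL, and A2M, which traps proteases of most classes, at 20875, 25414 and 42738 in LF/LCL against 16380.3, 13251 and 13827 in SF/SCL. The log2 fold changes of RECK and A2M were -0.73 (SE 0.23) and -0.97 (SE 0.30), both higher in LF/LCL cows.

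Of the 9 activators listed, 8 were tested and 2 had no overlap between the groups, 1 in each direction, where 18.1% of all genes tested had none. FURIN, the proprotein convertase that activates MMP14, MMP11 and most ADAMs and ADAMTSs, had 2986, 3010.2 and 3543 in LF/LCL and 2289, 933 and 2207 in SF/SCL. PLAT, tissue plasminogen activator, had 1939, 1549.7 and 1465 in LF/LCL against 3682, 2954 and 3929.8 in SF/SCL, and so was higher in every SF/SCL cow, with a log2 fold change of 1.09 (SE 0.20, limma BH-adjusted p = 0.351). Without cow 489215, PLAT and PLAU passed the adjusted threshold as higher in SF/SCL and FURIN and BSG as higher in LF/LCL, 2 of 8 in each direction, beside 10.3% and 7.92% of all genes in that fit. Of the 4 genes listed for proteoglycans that ADAMTS enzymes cleave, 3 were tested and 1 had no overlap, higher in LF/LCL (8.6% of all genes tested). This was versican (VCAN), with 3322, 1895 and 2494 in LF/LCL and 893, 835 and 795 in SF/SCL. It was 3.06-fold higher in LF/LCL (limma BH-adjusted p = 0.351). Aggrecan (ACAN) stayed at or under 82.6 and BCAN had a log2 fold change of 0.25 (SE 0.63), both with overlap, and NCAN was not tested. The ADAMTS-like proteins, which resemble ADAMTSs but have no protease domain, were tested for 4 genes. All 4 had a log2 fold change below 0, as did 51.4% of all genes tested. Of the 4, 1 had no overlap, ADAMTSL3, higher in LF/LCL (8.6% of all genes tested), with 1095, 1458 and 1293 in LF/LCL against 922, 457 and 975 in SF/SCL.

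The genes that escort ADAM10 and ADAM17 to the cell surface were divided. Of 8 tested, 4 had a log2 fold change above 0 and 4 below. No overlap between the groups was found for 4, 2 in each direction, where 18.1% of all genes tested had none. TSPAN14 and TSPAN33, tetraspanins that carry ADAM10, were higher in every SF/SCL cow. TSPAN14 had 2652, 2210.4 and 2124 in LF/LCL against 3419.6, 3046 and 3598 in SF/SCL. TSPAN33 had 681, 495 and 353 in LF/LCL against 1507, 700.3 and 1681 in SF/SCL, where cow 489215 lay just above the highest LF/LCL cow. TSPAN5, another tetraspanin partner of ADAM10, and RHBDF2 (iRhom2), which carries ADAM17, were higher in every LF/LCL cow. TSPAN5 had 386, 393 and 386 in LF/LCL against 267, 337 and 327 in SF/SCL, and RHBDF2 had 387, 421 and 449 against 324, 272 and 350.1. Unadjusted limma p-values were 0.0190 and 0.0182 for TSPAN14 and TSPAN33, and 0.179 and 0.107 for TSPAN5 and RHBDF2. Of 9 tested genes for proteins that ADAMs release, 3 had no overlap between the groups, beside the same 18.1% of all genes tested. Of these, TNF was higher in LF/LCL, at 18.8, 16.9 and 19.3 against 5.32, 13.3 and 8.67. The EGF receptor ligand BTC and the chemokine CXCL16 were higher in SF/SCL without overlap. BTC had 248, 195 and 249 in LF/LCL against 284, 369 and 501 in SF/SCL. CXCL16 had 653, 696 and 636 against 789, 1233 and 787, highest in cow 489215. Over all of these lists, 0 genes passed the adjusted threshold of limma with 6 cows, as in the whole comparison (DESeq2 called PLAT and VCAN, 8.66% of all genes had an unadjusted p-value under 0.05, and 8 of the 38 tested partner genes did).

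Marker genes of the cell types of the oviduct wall differed in level between the cows. The summed normalized count of 8 fibroblast markers was 106246 to 138963 in LF/LCL and 65549.6 to 96763 in SF/SCL, all 8 had a log2 fold change below 0, and their median was -0.85. For the 8 smooth muscle markers the sums were 728721 to 847464 in LF/LCL, 339479 and 399048 in cows 856 and 97 and 1227280 in cow 489215. The largest parts in cow 489215 were ACTA2 and TAGLN, at 533926 and 270402. Cow 489215 was highest for 5 of these 8 genes and lowest for SYNPO2, and its MYH11 value of 116653 was below every LF/LCL cow. All 8 smooth muscle markers had a log2 fold change below 0, with a median of -0.54. The secretory and general epithelial list (8 genes found) summed to 26639 to 34433 in LF/LCL, 330650 and 391087 in cows 856 and 97 and 55887 in cow 489215, mostly through OVGP1 in cows 856 and 97, while 4 of the 6 tested genes of the list were highest in cow 489215. The general epithelial gene EPCAM, for example, had 12286, 9925 and 8529.6 in LF/LCL against 15871, 20313 and 18854 in SF/SCL. The ciliated list (9 found, 1 of them, PIFO, at 0) summed to 17509.7 to 20819 in LF/LCL, 12772 in cow 489215 and 41278 and 45241 in the other SF/SCL cows. Endothelial markers (7 found) summed to 13424 to 17288 in LF/LCL and 11224 to 16609 in SF/SCL, and leukocyte markers (10) to 1884 to 3072 and 2216 to 2555. Mesothelial markers (5) summed to 4713 to 8976 in LF/LCL and 13517.5 to 15232 in SF/SCL, mostly through KRT19 and WT1, which other cells also express. The mesothelial gene LRRN4 went the other way, with 283, 412 and 175 in LF/LCL against 3.80, 5.33 and 16.3 in SF/SCL, and UPK3B overlapped. Erythrocyte genes (5) summed to no more than 25.3 in any cow. All 8 fibroblast and all 8 smooth muscle markers had reads in the libraries. Of the epithelial lists, PIFO was at 0 in every cow, CFAP43 and CDH1 were not found by symbol, and the rest had reads. The part of these cell types in the protease differences was not tested, and in bulk tissue fewer cells of a type and less RNA per cell cannot be told apart.

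**Figure D5:**
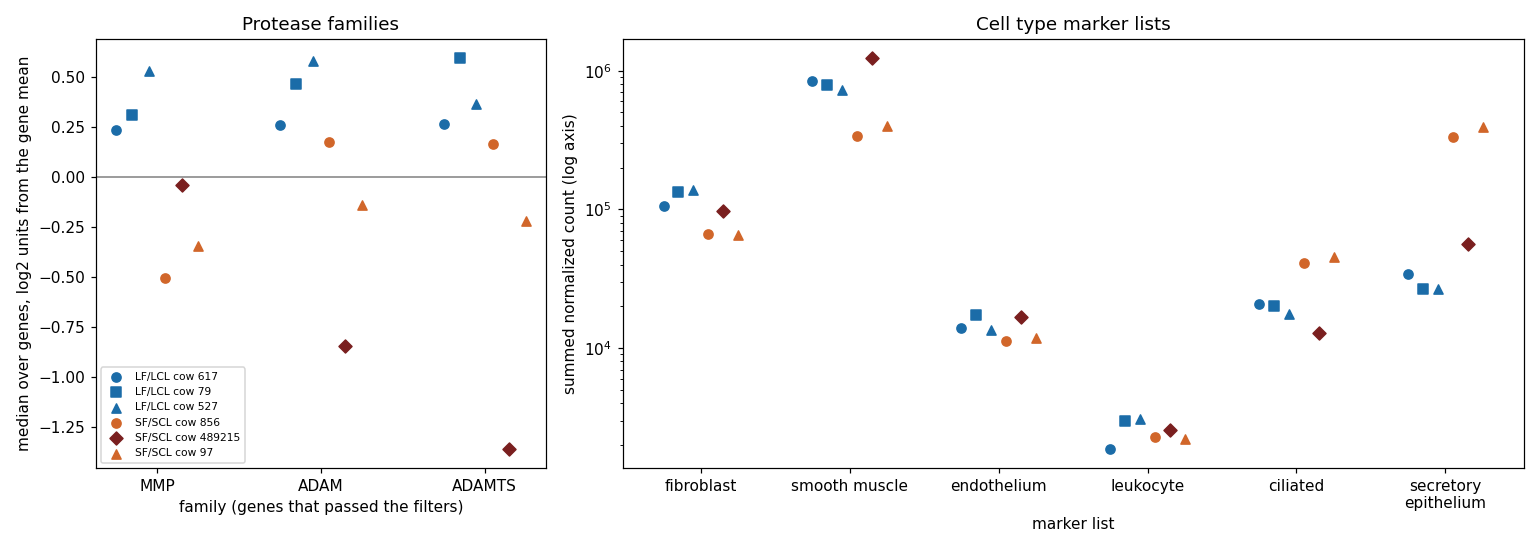
Left, the median over the tested genes of each protease family in each cow, in log2 units from the mean of each gene. Right, summed normalized counts of the marker lists on a log axis. The fibroblast sums are highest in the LF/LCL cows, and the smooth muscle sum, with ACTA2 and TAGLN as its largest parts, is highest in cow 489215. The ciliated and secretory sums, the latter mostly OVGP1, are highest in cows 856 and 97.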

How the data were processed

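Polyadenylated isthmus RNA of 6 cows was sequenced as paired ends. Per the labels and methods, the authors cleaned reads with seqyClean, mapped them to the masked bovine assembly UMD3.1 with TopHat2 2.0.8 and Bowtie2 2.1.0, and counted unique reads per Ensembl gene with HTSeq 0.5.4p2. Use of strand is not given in the sources used here. The deposited signal values are counts that the authors divided by DESeq size factors. In each library at least 99.97% of values were whole multiples of 1 step (within 0.01 read), which gave back the reads.

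Groups were compared by limma 3.58.1 in R 4.3.3 on log2(value + 1), with a trended, robust variance prior. Genes entered if their mean over the 6 libraries exceeded 5 and also exceeded their SD, and p-values were adjusted by Benjamini-Hochberg over all 15387 genes. Alternatives were edgeR 4.0.16 and DESeq2 1.42.0 on the recovered reads, other filters, pseudocounts and scaling, and each cow left out, with filters applied anew. The fits were tested on simulated data.

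Values per cow are given for genes without overlap between the groups, for the 4 with the highest counts in each family and for those the study names for the isthmus, and as ranges for genes with a mean under 15. TIMPs and partner genes without overlap were also named. Other genes given per cow (MMP7, MMP11, ADAM17, ADAM22, ADAMTS3, ADAMTS5, ADAMTS14) were added after their values were seen. The members and lists were chosen with earlier results of these data known. No genome of the assembly was used, so positions and sequences are not given. Of 54 member rows, 46 had a symbol found in a RefSeq table of another assembly (NIAB-ARS_B.indTharparkar). Each sample is a separate cow. Limits from counts cover counting error only.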

Additional observations from a re-analysis of the deposited data

How the results depend on the processing

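With all 6 cows, 0 genes and 0 proteases were called by limma under the other filters, pseudocounts and scaling and by edgeR's quasi-likelihood test with either normalization, whereas DESeq2 called 416 genes and 5 proteases (MMP14, MMP24, ADAM23, ADAMTS2 and ADAMTS4, all higher in LF/LCL). Leaving out each cow in turn gave 0 to 2827 genes and 0 to 10 proteases, the highest values both without SF/SCL cow 489215. The median log2 fold change of the MMPs was -0.64 with DESeq2 and with edgeR on DESeq2 size factors, and -0.40 without a filter, where MMPs with few reads enter, and it ran from -0.94 to -0.46 when each cow was left out, the last without cow 856. Those of the ADAMs and ADAMTSs ran from -0.76 to -0.39 and from -1.08 to -0.56 over the alternatives. The values of -0.39 and -0.56 were those without cow 489215. Among the 42 proteases, 9 log2 fold changes changed sign when 1 cow was left out. Those of ADAM28, ADAM8, ADAM21 and ADAMTS18 reached 0.34, 0.06, 0.51 and 0.12, and that of ADAM32 reached 0.64. The others were ADAMTS10 (0.19 without cow 489215, range with each cow left out -0.69 to 0.19), ADAMTS5 (-0.28 without cow 856 and -0.23 without cow 97, range -0.28 to 1.86), ADAMTS3 (-0.37 without cow 856, range -0.37 to 1.34) and ADAMTS14 (range -0.88 to 0.83, 0.30 with edgeR and TMM, 0.32 with edgeR on DESeq2 size factors, 0.32 with DESeq2 and 0.83 without cow 489215), and none of the reversed values printed for these last 4 passed the adjusted threshold. The cause was not tested. Scaling to the library total moved the median of all genes from -0.02 to -0.11. No paired analysis was possible because the groups share no replicate numbers. MMP24, ADAMTS13 and the MMPs outside the test rest on few reads.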

Other observations

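Several of the protease genes lie next to each other in the RefSeq gene order of another cattle assembly, and some neighbours differed in their order of cows. ADAMTS5 and ADAMTS1 have 0 coding genes between them. ADAMTS1 was higher in every LF/LCL cow, with a log2 fold change of -0.42 (SE 0.22), while ADAMTS5 was 2.43 times as high in SF/SCL by the means and lowest in cow 489215. ADAMTS8 and ADAMTS15, also with 0 coding genes between them, had log2 fold changes of -0.70 and -1.08, and cow 489215 had the highest value of the 6 for ADAMTS8 (9.32) and the lowest for ADAMTS15 (74.6). The neighbours MMP27, MMP20 and MMP7 all had few or no reads in LF/LCL, and MMP7 alone had more in SF/SCL, up to 139.8 in cow 97. These pairs were chosen after their values were seen.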
